A study of Mus musculus with 16 samples.

Results

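The H3K9me3 peaks described here carried the deposited orientation label "upstream" relative to the nearest gene. They numbered 8188 of 212313 H3K9me3 peaks and lay next to 5731 genes. Despite the label, they lay past the 3′ ends of genes and not before their start sites. In the GENCODE M21 annotation, 8037 of the 8188 peaks (98.2%) were on the 3′ side of the named gene and 2 were on the 5′ side. A further 114 overlapped the gene in that annotation and 35 had a gene that it does not list. For 7805 of 8153 peaks with a listed gene (95.7%), the deposited distance equalled the distance to the gene's 3′ end. The label therefore gave where the gene lies relative to the peak, and the peaks are called 3′ flanking peaks from here on. Peaks with the label "downstream" were the mirror case, with 7457 of 7533 (99.0%) on the 5′ side.

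The study compared small intestinal crypts of C57BL/6 mice, either wild type (WT) or with a Vil-Cre mediated KO of Smarcad1. The KO animals were homozygous for a Smarcad1 allele flanked by loxP sites and carried a Cre transgene under the Villin promoter, which is active in the intestinal epithelium. Cells of the crypt isolate outside the epithelium therefore kept the gene. Male mice were used per the methods of the study, and ages of these animals are not given in the sources used here. Whole crypt isolates were fixed in formaldehyde, and chromatin was immunoprecipitated with an antibody to histone H3 trimethylated at lysine 9 (H3K9me3) or dimethylated at lysine 9 (H3K9me2). For each mark there were 3 libraries per genotype, and 1 library per genotype of input, the sonicated chromatin before immunoprecipitation. The libraries measure DNA, so neither the loss of Smarcad1 nor the cell types of the isolates could be checked here against RNA markers. The study calls the libraries biological replicates, but the labels do not tie them to separate animals, and p-values measure the spread between these libraries.

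H3K9me3 is the mark of constitutive heterochromatin. It is bound by heterochromatin protein 1 and keeps repeats, transposable elements and some gene clusters silent. In mammals it is known to cover the 3′ exons of zinc finger gene clusters. Smarcad1 is a SWI/SNF-like ATP-dependent remodeler, known for helping cells to restore heterochromatin after DNA replication.

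The 3′ flanking peaks were sorted by distance from the gene end into 1799 peaks at 0-1 kb, 2584 at 1-2.5 kb and 3805 at 2.5-5 kb. Peaks further than 5 kb from any gene carry no gene in the deposited table. The median width was 1350 bp in each bin, as over all peaks. The ChIP libraries held 7035231 to 11835967 reads in peaks, with the KO1 library the lowest, and the inputs held 8838386 (WT) and 8452186 (KO). A 3′ flanking peak had a median of 21 to 37 reads per library, so a small difference at a single peak was not detectable at this depth. The deposited H3K9me3 values were log2 read counts transformed by the authors so that all 6 ChIP libraries share 1 distribution. A value thus states a peak's place within its library, and a change of the mark over all peaks together would not be visible in it.

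Printed below are the ends nearest to the gene of the 3 named peaks with the smallest p-values among those lower in KO. The same end of the named higher peak with the smallest p is added. H3K9me3 was measured over whole peaks, so these windows do not show which bases carried the difference. They are from the GRCm38 genome, plus strand, 300 bases each, with CG dinucleotides (the site of DNA methylation in mammals) in capitals. The Klrb1c window is chr6:128775601-128775900, the Gm24435 window chr3:97138951-97139250, the Pmf1 window chr3:88391551-88391850 and the Krtap11-1 window chr16:89567101-89567400.
Klrb1c (lower in KO): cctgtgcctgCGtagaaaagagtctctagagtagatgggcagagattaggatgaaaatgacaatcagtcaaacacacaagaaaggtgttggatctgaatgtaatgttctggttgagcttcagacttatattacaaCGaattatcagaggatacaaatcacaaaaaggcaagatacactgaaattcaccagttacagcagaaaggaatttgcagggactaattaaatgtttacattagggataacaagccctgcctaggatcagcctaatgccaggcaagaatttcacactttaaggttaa
Gm24435 (lower in KO): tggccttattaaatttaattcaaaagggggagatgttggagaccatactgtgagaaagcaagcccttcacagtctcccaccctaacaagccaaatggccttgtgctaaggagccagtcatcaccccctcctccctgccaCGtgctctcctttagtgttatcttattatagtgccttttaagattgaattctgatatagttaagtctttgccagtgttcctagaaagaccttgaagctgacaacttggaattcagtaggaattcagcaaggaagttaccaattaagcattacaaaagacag
Pmf1 (lower in KO): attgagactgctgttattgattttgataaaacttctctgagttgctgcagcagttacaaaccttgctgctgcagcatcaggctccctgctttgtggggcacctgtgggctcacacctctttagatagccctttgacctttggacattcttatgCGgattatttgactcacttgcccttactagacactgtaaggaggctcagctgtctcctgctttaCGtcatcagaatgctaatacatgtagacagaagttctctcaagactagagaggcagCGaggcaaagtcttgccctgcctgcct
Krtap11-1 (higher in KO): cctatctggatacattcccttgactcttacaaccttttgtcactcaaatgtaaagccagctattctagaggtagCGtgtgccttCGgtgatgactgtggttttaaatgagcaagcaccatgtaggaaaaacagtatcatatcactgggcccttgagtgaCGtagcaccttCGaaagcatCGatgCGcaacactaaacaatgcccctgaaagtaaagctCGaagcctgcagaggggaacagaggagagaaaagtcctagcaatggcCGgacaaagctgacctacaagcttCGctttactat

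These windows held 2, 1, 3 and 9 CG dinucleotides and had a GC content of 39.0%, 42.3%, 47.3% and 46.3%, in the order printed. Windows of 300 bases could be cut from 8039 of the 3′ flanking peaks, and 73.3% of them held at least 1 CG, with a median of 1. Among the 437 windows of peaks called lower in KO the share was 79.2% and the median was 2. The Krtap11-1 window held the most of the 4 shown.

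The first question was whether H3K9me3 beside gene 3′ ends differed between genotypes. H3K9me3 was lower in KO at 441 of the 8188 peaks (5.39%) and higher at 7 (0.0855%), by limma across all peaks with a Benjamini-Hochberg adjusted p under 0.05. Over all 212313 peaks the shares called were 2.46% lower and 0.252% higher. The 441 lower peaks lay next to 426 genes (7.43% of the 5731), their differences ran from -2.06 to -0.34 on the log2 scale with a median of -0.81, and 129 were at least 2-fold lower. Of the called 3′ flanking peaks 98.4% were lower, against 90.7% of the calls over all peaks. In 1129 3′ flanking peaks (13.8%) all 3 KO values lay below all 3 WT values, against 8.21% of all peaks, and in 440 (5.37%) all 3 lay above, against 7.30%. The median difference over all 3′ flanking peaks was -0.031 on the log2 scale, against 0.028 over all peaks, so the typical peak hardly moved and the calls were a tail on the lower side. In whole isolates, less of the mark in every cell and loss of it in part of the cells cannot be told apart.

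**Figure D1:**
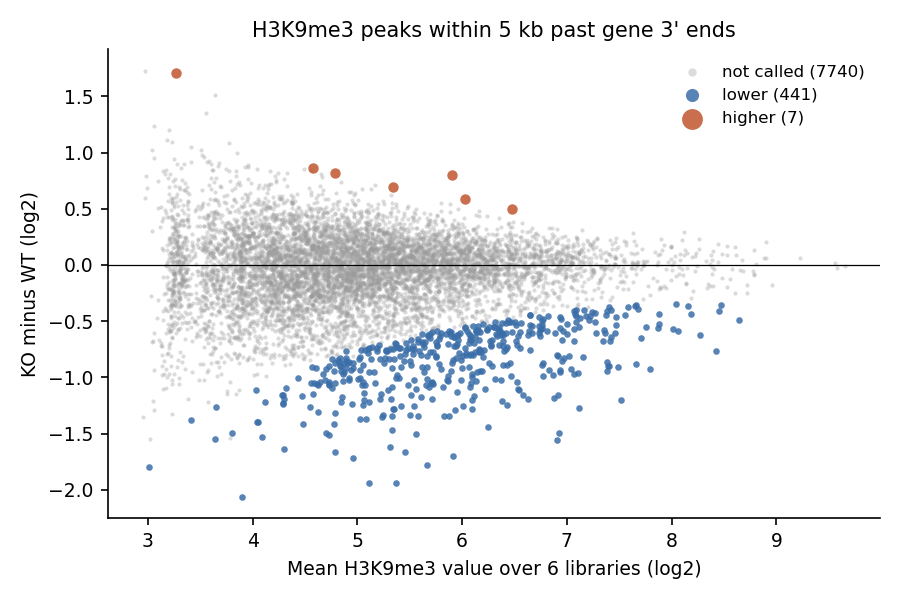
Each point is 1 of the 8188 3′ flanking peaks, with its mean deposited log2 value over the 6 ChIP libraries on the horizontal axis and KO minus WT on the log2 scale on the vertical axis. The 441 peaks called lower (blue) form a band under the main cloud, and the 7 called higher (orange) lie above it.

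The number called depended on the fit and on the libraries used. DESeq2 on recovered read counts called 201 lower (2.45%, against 1.06% of all peaks) and 1 higher (0.0122%, against 0.0575%), while edgeR on the same counts called 474 (5.79%, against 2.74%) and 9 (0.110%, against 0.274%). Limma without a trend of the spread on the level called 7 lower (0.0855%, against 0.0410%) and none higher (all peaks: 0.00754%), where the trend fit has 441. Without the WT1 library 275 were called lower (3.36%, against 1.53%), and without KO3 only 2 were called higher (0.0244%, against 0.166%).

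The position of a peak relative to its gene was compared next. The share called lower was 5.11% at 0-1 kb (92 peaks), 5.69% at 1-2.5 kb (147) and 5.31% at 2.5-5 kb (202), and the share called higher was 0.0556% (1 peak), 0.0774% (2) and 0.105% (4). The median differences in these bins were -0.030, -0.026 and -0.035 on the log2 scale. In bins of 1 kb the share called lower was 5.11%, 5.52%, 5.45%, 4.22% and 6.65% going outward, with no steady trend over the 5 kb. The 5′ flanking peaks (label "downstream") had nearly the same share, 409 of 7533 (5.43%) lower and 14 (0.186%) higher. Peaks overlapping a gene had 3.54% lower and 0.559% higher, and peaks with no gene within 5 kb had 1.63% and 0.126%. The higher share of lower calls was therefore seen on both flanks of genes and was not specific to the 3′ side.

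**Figure D2:**
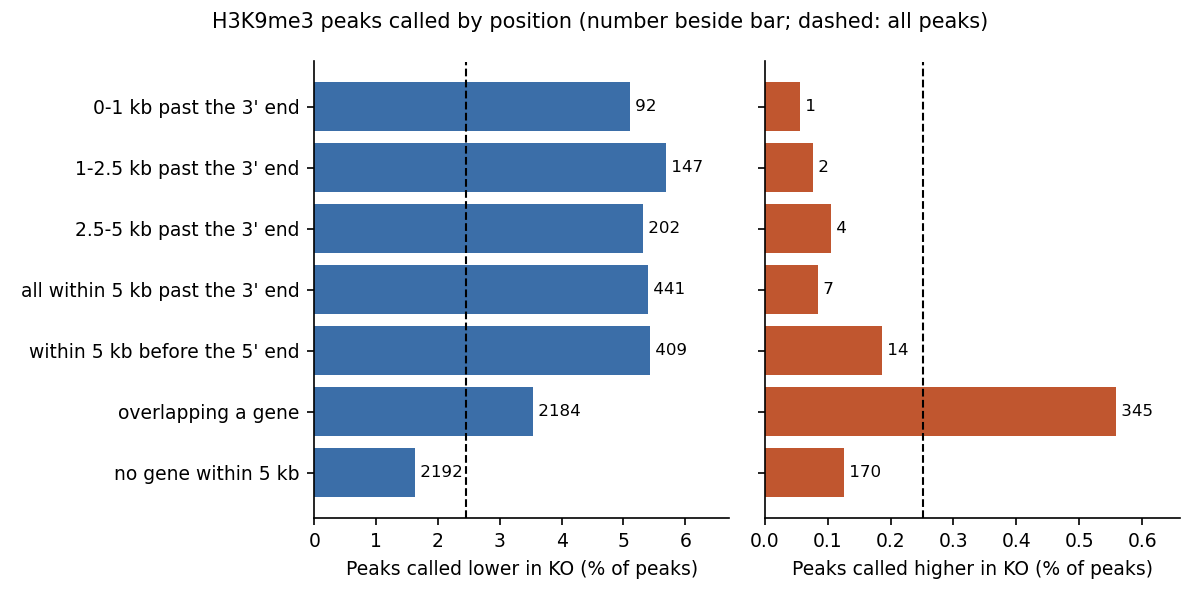
Bars give the percent of peaks called lower (left) or higher (right) in KO by limma, with the number of peaks beside each bar and the share over all peaks as a dashed line (2.46% and 0.252%). Positions follow the deposited label and distance as explained in the text, and the scales of both panels differ. All 3 distance bins past the 3′ end lie above the line on the left and below it on the right.

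A strongly marked peak has more reads and is more easily called, so the shares were also set side by side at like levels. In the lowest quartile of all peaks by mean value 0.789% of the 3′ flanking peaks and 0.512% of all peaks were called lower. In the second quartile these shares were 2.73% and 1.55%, in the third 6.23% and 2.93%, and in the highest 12.6% (248 of 1968 peaks) and 4.85%. The 3′ flanking peaks had the higher share in each of the 4 quartiles, and their median level, 4.95, was close to the 5.01 of all peaks.

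**Figure D3:**
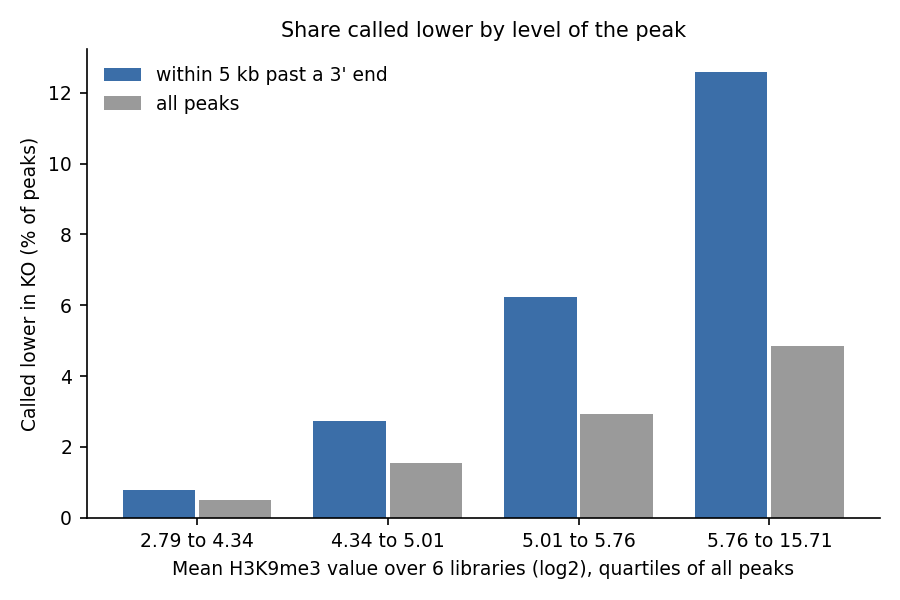
Bars give the percent of peaks called lower in KO within each quartile of the mean deposited log2 value (horizontal axis), for 3′ flanking peaks (blue) and all peaks (grey). The shares climb from 0.789% to 12.6% in the first and from 0.512% to 4.85% in the second.

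The comparison with the input libraries placed the 3′ flanking peaks relative to the typical peak, each over chromatin without antibody, and does not say how far they stood above input. The 3′ flanking peaks took 3.85%, 3.78% and 3.81% of the reads in peaks in WT1, WT2 and WT3, and 3.59%, 3.63% and 3.60% in KO1, KO2 and KO3. In the inputs the same peaks took 3.545% (WT) and 3.595% (KO). All 3 WT libraries lay above all 3 KO libraries, and the KO libraries were close to the inputs. The log2 ratio of ChIP over the input of the same genotype, set to 0 at each library's median over all peaks, had medians of 0.11, 0.08 and 0.09 in WT1, WT2 and WT3 (mean 0.09 ± 0.02, SD, n = 3) and -0.02, 0.01 and 0.00 in KO1, KO2 and KO3 (mean -0.002 ± 0.013, SD, n = 3). With at least 10 reads in each input the means were 0.046 in WT and -0.044 in KO, and with recovered reads over library totals they were 0.024 and -0.021, so the size of the ratio depended on the setting while WT stayed above KO. By distance the WT means were 0.08, 0.11 and 0.09 and the KO means were -0.009, -0.004 and 0.002. At least 2-fold over that median were 577 3′ flanking peaks (7.05%) in WT and 321 (3.92%) in KO, against 4.40% and 3.34% of all peaks. These ratios use 1 input per genotype, so the error of the inputs is not in the SD.

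The peaks called lower had a mean of the library medians of 0.69 over input in WT and -0.29 in KO, while peaks not called had 0.06 and 0.01. Since the calls were made on the same libraries, this only describes where the called peaks started and ended. The median KO-over-WT log2 ratio of the inputs was 0.115 at the lower peaks and 0.025 at those not called, with 1 input per genotype. A higher KO input adds to the fall in the ratio over input, and its part in that fall was not tested.

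Sequence and size, which the rule did not use, had other medians in the called peaks. Lower 3′ flanking peaks had a median width of 2100 bp, a GC content of 43.3%, 8.21 CG dinucleotides per kb and 52.8% of bases soft-masked as repeats. Those not called had 1350 bp, 40.4%, 5.33 per kb and 42.6%. Over all peaks the lower ones stood at 1950 bp, 42.8%, 7.41 per kb and 48.9%, and those not called at 1350 bp, 39.4%, 5.19 per kb and 34.8%. The 7 higher peaks had 18.2% of bases soft-masked. Width and level make a peak easier to call, and their part in these differences was not tested.

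Within 1 kb of a gene end the rule named 4 lower peaks and 1 higher peak. The peak 610 bp past AC134248.1 (chr9:123140251-123147300), a transcript still awaiting experimental evidence, had log2 values of 8.30, 8.26 and 8.21 in WT1, WT2 and WT3 and 7.13, 7.53 and 7.34 in KO1, KO2 and KO3. All KO values were lower than all WT values, and the difference was -0.92 ± 0.10 (SE; adjusted p = 4.34e-09). The peak 317 bp past the processed pseudogene Gm13194 (chr2:4942801-4946850) stood at 7.46 ± 0.07 in WT and 6.28 ± 0.36 in KO (SD, n = 3 libraries each), a difference of -1.18 ± 0.13 (SE; limma adjusted p = 1.27e-08). Soft-masked repeats made up 73.8% of it. The peaks past Gm36981 and the antisense gene Gm17189 fell by 0.90 and 1.16 on the log2 scale. The only peak called higher in this bin lay 520 bp past Fshr, the receptor of follicle-stimulating hormone, with 5.06, 5.30 and 4.61 in WT, compared with 5.91, 5.39 and 5.75 in KO. The ranges were close to touching, the difference was 0.69 ± 0.20 (SE; limma adjusted p = 0.0460), and the call was lost in edgeR and DESeq2 on recovered counts and without WT1, WT3, KO1 or KO3.

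At 1-2.5 kb the lower peaks of smallest p were next to a small nuclear RNA gene and a kinetochore gene. The peak 1302 bp past the snRNA gene Gm24435 (chr3:97133551-97139250) had 8.16, 8.08 and 8.10 in WT, compared with 6.81, 6.99 and 6.95 in KO. The groups were more than 1 log2 unit apart, with a difference of -1.20 ± 0.10 (SE; limma adjusted p = 5.33e-12), and 76.9% of its bases were soft-masked. The peak 2293 bp past Pmf1 (chr3:88389451-88391850), which codes for a subunit of the kinetochore MIS12 complex, had 7.71, 7.57 and 7.74 in WT and 5.76, 6.52 and 6.25 in KO. It was 2.83-fold lower (-1.50 ± 0.13, SE; limma adjusted p = 2.47e-11), and unlike the Gm24435 peak only 9.2% of it was soft-masked. Recovered reads at the Pmf1 peak were 238, 183 and 243 in WT and 38, 108 and 77 in KO, with 49 and 56 in the WT and KO inputs. The start site of another gene lay 4987 bp from this peak. The peaks past Gm42885 and Gm43353 had log2 differences of -1.27 and -1.44.

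Both peaks called higher at 1-2.5 kb lay past olfactory receptor genes, which code for odorant receptors of sensory neurons. Past Olfr1148 the values were 4.30, 4.31 and 4.51 in WT and 5.15, 5.42 and 5.01 in KO, without overlap (0.82 ± 0.23, SE; limma adjusted p = 0.0376). Past Olfr124 they were 0.81, 3.54 and 2.88 in WT, compared with 3.93, 4.48 and 3.96 in KO. The Olfr124 peak was 450 bp wide and held 3, 11 and 9 reads in WT and 11, 26 and 15 in KO, with a difference of 1.71 ± 0.47 (SE; limma adjusted p = 0.0314). Without WT1, the library with 3 reads, the difference was 0.91 and was not called, and the call was also lost in DESeq2 and without KO1, KO2 or KO3. The Olfr1148 call was lost in DESeq2 and without any 1 of the 6 libraries.

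At 2.5-5 kb the peak with the smallest p of all 3′ flanking peaks lay 2585 bp past Klrb1c (chr6:128772151-128775900), which codes for the NK1.1 receptor of natural killer cells. Its values were 7.69, 7.55 and 7.80 in WT, compared with 5.94, 6.40 and 6.04 in KO. The difference was -1.56 ± 0.13 (SE; limma adjusted p = 1.17e-12), 2.95-fold lower. It held 235, 180 and 255 reads in WT against 98 in the WT input, and 43, 99 and 66 in KO against 103 in the KO input, so each KO library was under the KO input count before any adjustment for depth. Peaks past Gm44478 (chr6:128634901-128638950), Gm44215 (chr6:128687401-128690550) and Gm16186 (chr6:129023851-129027900) were also called lower. The Klrb1c peak need not be independent of these neighbours. The peak 3383 bp past Ankrd10 (chr8:11605651-11608200) had 6.95, 6.61 and 6.74 in WT and 4.66, 5.36 and 5.18 in KO. It was 3.25-fold lower (-1.70 ± 0.17, SE; limma adjusted p = 5.34e-10) and CG-rich, with 18.82 CG dinucleotides per kb. Past the processed pseudogene Gm15235 the difference was -1.78 ± 0.19 (SE; limma adjusted p = 4.22e-09) with 21.67 CG per kb, and past the antisense gene AC131081.1 it was -1.19 ± 0.13 (SE; limma adjusted p = 5.85e-09).

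The clearest higher peak lay 2776 bp past Krtap11-1 (chr16:89564701-89567400), which codes for a hair keratin-associated protein. It had 5.66, 5.69 and 5.14 in WT and 6.28, 6.22 and 6.41 in KO, without overlap, and differed by 0.80 ± 0.17 (SE; limma adjusted p = 0.00126). It was the single 3′ flanking peak called higher at an adjusted p under 0.01 (0.0122%, against 0.121% of all peaks), where 291 were called lower (3.55%, against 1.58%). The peak past Gm5117 differed by 0.50 ± 0.14 (SE; limma adjusted p = 0.0300), a call lost in DESeq2 and without WT1, WT3, KO1 or KO3. The other 2 peaks called higher lay past 6720489N17Rik (0.58) and Ccdc178 (0.87), both on the log2 scale.

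**Figure D4:**
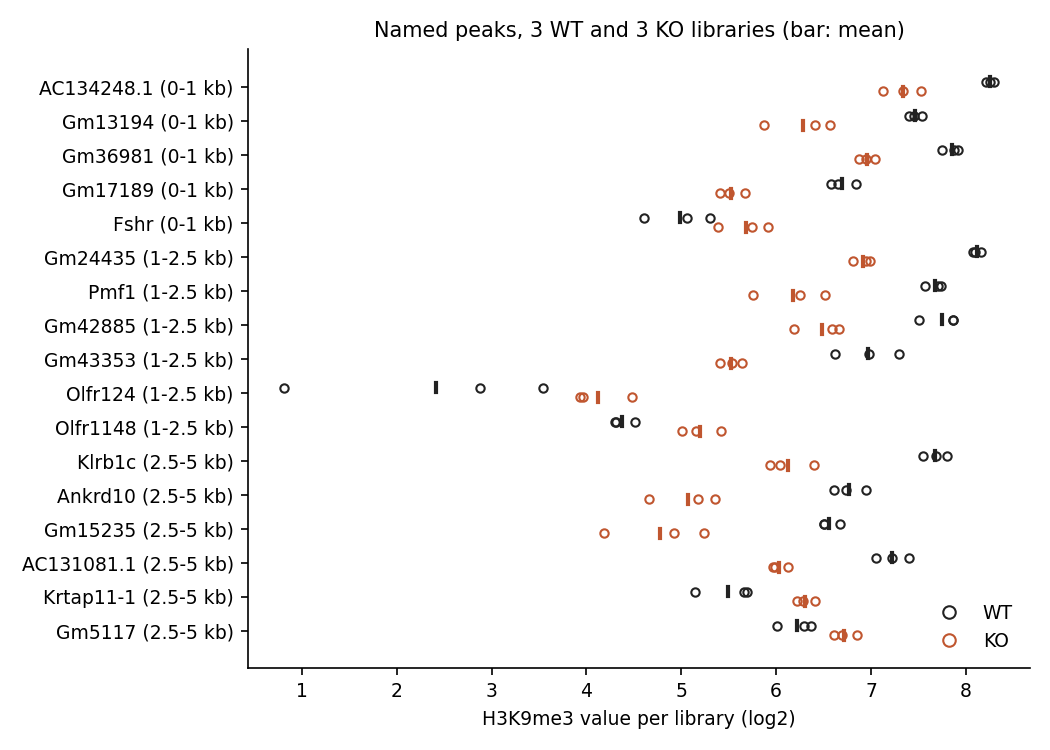
Deposited log2 H3K9me3 values (horizontal axis) of the 17 named 3′ flanking peaks, named by gene and distance bin, in 3 WT (black) and 3 KO (orange) libraries, with circles for libraries and bars for means. The KO circles lie left of the WT circles in the 12 lower peaks and right of them in the 5 higher ones, where the gaps are smaller and Olfr124 has the widest WT spread.

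Several genes had more than 1 peak past the same end. Of the 5731 genes, 3861 had 1 peak and 1870 had 2 or more. The gene with most, Kcnmb2 (a regulatory subunit of a calcium-activated potassium channel), had 6 peaks with differences from -0.31 to 0.85 on the log2 scale, none of them called, and all but 1 of these peaks were 300 bp wide with 3 to 16 reads per library. In 15 genes 2 peaks were called lower, and no gene had 1 lower and 1 higher. Among them were Rictor, the defining subunit of mTOR complex 2 (log2 differences of -0.60 and -1.11 at deposited distances of 3 and 4653 bp, of which the nearer peak overlaps the gene in GENCODE M21), and Tnip3, an inhibitor of NF-κB signaling (-0.57 at 261 bp and -0.51 at 4311 bp). At Rictor the nearer peak had 6.42, 6.35 and 5.80 in WT and 5.55, 5.50 and 5.72 in KO, and the farther peak had 4.49, 4.81 and 4.45 in WT and 3.93, 3.37 and 3.14 in KO. A Rictor peak between them, at 3603 bp, had a difference of -0.42 and was not called (limma adjusted p = 0.608). The remaining genes with 2 lower peaks were Txndc8, Rdh9, Zfp971, Gm12312, Gm15826, Rpl12-ps2, 4732471J01Rik, 1700105P06Rik, 7530428D23Rik, AC125535.1, AC134860.2, AC134860.4 and CT009550.1. The lower peaks adjoin each other directly at Rdh9, Zfp971, 4732471J01Rik, AC125535.1 and CT009550.1, so they are not separate domains there.

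By gene type the share called lower ran from 0% to 19.4%, beside 5.39% of all 3′ flanking peaks and 2.46% of all peaks, and the differences between types were not tested. Protein coding genes had 216 lower and 6 higher of 2469 peaks (8.75% lower, median difference -0.09 on the log2 scale), and antisense RNA genes had 19 of 98 lower (19.4%, median -0.26). LincRNA genes had 54 of 908 (5.95%), processed pseudogenes 81 of 2263 (3.58%), unprocessed pseudogenes 25 of 678 (3.69%), snRNA genes 10 of 300 (3.33%), miRNA genes 4 of 230 (1.74%) and snoRNA genes 3 of 251 (1.20%). Transcripts awaiting experimental evidence had 10 of 307 (3.26%), and other types had 19 of 320 (5.94%). Immunoglobulin and T cell receptor segments had none of 329 peaks called in either direction, with a lower median level of 4.50. By limma at this threshold that 0 stands beside a median difference of 0.03.

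Gene families were described by counts, since the lists were chosen with earlier results of these data known, and no family was tested against the 5.39% of 3′ flanking peaks or the 2.46% of all peaks called lower. Detoxification and retinol enzymes had 11 of 50 peaks lower and none higher (22.0%, median difference -0.46 on the log2 scale). They included Cyp2c65, a cytochrome P450 expressed in the intestine, where the peak 3857 bp past the end had 7.56, 7.29 and 7.36 in WT and 6.33, 6.56 and 6.52 in KO (-0.93 ± 0.12, SE; limma adjusted p = 3.10e-07). The peak 254 bp past Rdh9, a retinol dehydrogenase family gene, had 5.98, 5.60 and 5.86 in WT and 3.47, 4.54 and 4.28 in KO (-1.72 ± 0.24, SE; limma adjusted p = 1.20e-06). The other called peaks were past Cyp3a41a, Cyp2c37, Cyp4f15, Cyp2j7-ps1, Cyp19a1 (aromatase), Cyp2d26, Sult2a7 and Adh4, and a second peak was past Rdh9, with differences between -0.85 and -0.54. Several of these families hold near-identical copies, between which short reads are hard to assign. Solute carriers, the membrane transporters of sugars, peptides and other small molecules, had 5 of 27 lower and none higher (18.5%, median -0.44). They were past Slc35f5 (-0.87), Slc2a10 (-0.87), Slc15a1, the intestinal peptide transporter (-0.83), Slc22a16 (-0.55) and Slc28a1, a nucleoside transporter (-0.53), all log2 differences, and in Slc2a10 and Slc22a16 the WT and KO values overlapped.

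Zinc finger genes, most of which code for DNA-binding repressors, had 10 of 86 peaks lower and none higher (11.6%, against 2.46% of all peaks, with a median of -0.14 on the log2 scale). The peak of smallest p lay 2567 bp past Zfp607b, with 7.79, 7.45 and 7.53 in WT and 6.61, 6.74 and 6.52 in KO (-0.96 ± 0.12, SE; limma adjusted p = 6.58e-08). The other called peaks were past Zfp60 (from a mean of 6.60 in WT to 5.60 in KO), Zfp251 (-1.03), Zfp931 (-0.95), Zfp971 (-0.87 and -0.60), Zfp346 (-0.70), Zkscan3 (-0.55), Zfp709 (-0.53) and Zfp26 (-0.46). Zfp607b and Zfp60 lie close together on chromosome 7, and Zfp931 and Zfp971 on chromosome 2, so these peaks need not be independent of each other.

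The large receptor families are given beside the 5.39% of 3′ flanking peaks and the 2.46% of all peaks called lower, and the differences from these shares were not tested. Olfactory receptors had 11 of 699 peaks lower and 2 higher (1.57% lower, median difference -0.003 on the log2 scale), and the largest fall was past Olfr521 (-1.23 ± 0.23, SE; limma adjusted p = 0.000241). Vomeronasal receptors, the pheromone receptors, had 4 of 287 lower and none higher (1.39%, median -0.004), at Vmn1r-ps125, Vmn2r-ps3, Vmn1r-ps97 and Vmn1r234, of which the last overlaps its gene in GENCODE M21. The V segments of immunoglobulin and T cell receptor genes had none of 311 called in either direction, with a median of 0.03. Their median levels were 5.08, 5.05 and 4.47, of which the V segments' alone is under the 4.95 of all 3′ flanking peaks.

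Innate immune genes had 3 of 31 peaks lower and none higher (9.68%, against 2.46% of all peaks, with a median of -0.04 on the log2 scale), a count too small to read as a result about the family. Past Clec2i, a lectin-like ligand of natural killer receptors, the values were 6.40, 6.67 and 6.43 in WT and 5.20, 5.27 and 5.01 in KO (-1.34 ± 0.16, SE; limma adjusted p = 7.95e-08). Clec2e (-0.46) and Ifitm7 (-0.81) were the others. Defensins, with as few, had 2 of 16 lower (12.5%, median -0.09), past Defb40 (-0.68) and Defb10 (-0.34). The 2 peaks past Defa30, an alpha-defensin (a family secreted by Paneth cells), differed by 0.11 and 0.39 and were not called. Protocadherins had none of 8 called, with a median of -0.03. Predicted genes named Gm had 133 of 3654 lower and 1 higher (3.64%), and Rik genes 31 of 339 lower and 1 higher (9.14%).

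**Figure D5:**
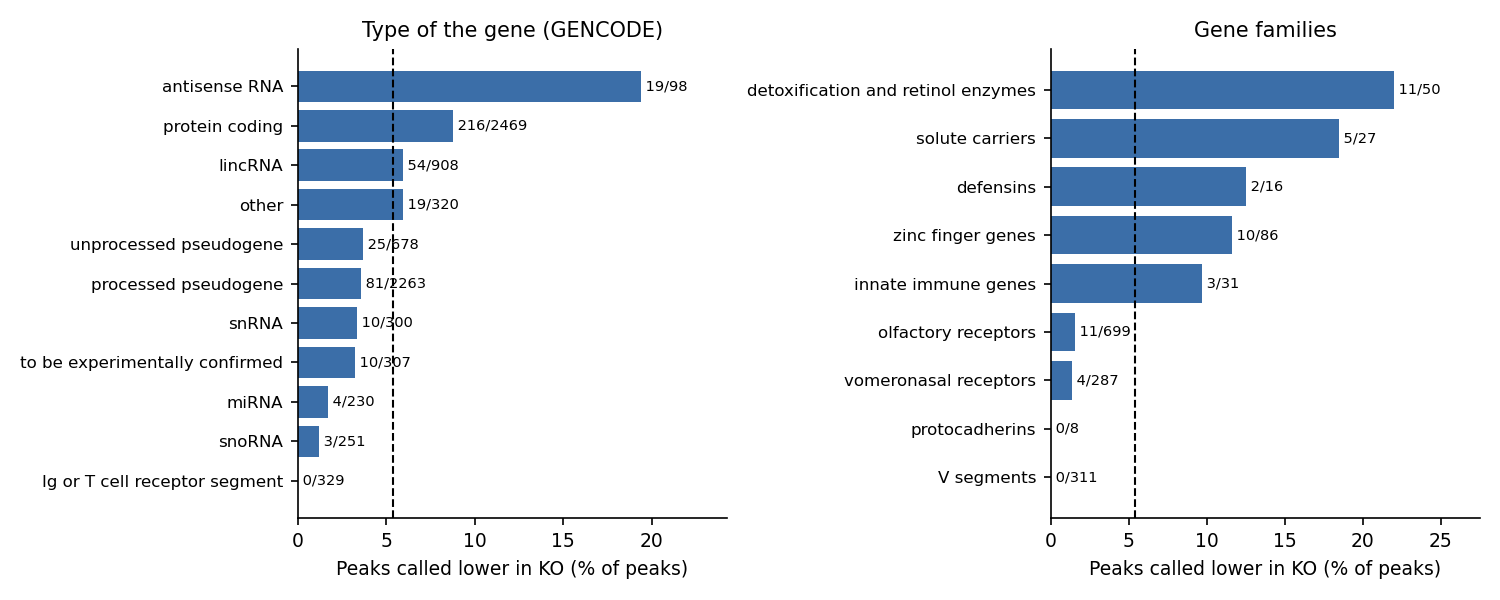
Bars give the percent of 3′ flanking peaks called lower in KO by gene type (left) and gene family (right), with the number lower and the number of peaks beside each bar and the share of all 3′ flanking peaks, 5.39%, as a dashed line. Antisense RNA genes and detoxification and retinol enzymes have the longest bars, and immunoglobulin or T cell receptor segments, V segments and protocadherins have none, while several groups hold under 100 peaks.

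Few genes from the single-gene lists had such a peak. Of 26 heterochromatin genes 1 had one, Cbx3, which codes for heterochromatin protein 1 gamma, a reader of H3K9 methylation. The peak 3647 bp past Cbx3 had 6.67, 6.48 and 6.68 in WT and 5.46, 5.92 and 5.29 in KO, and fell by 1.05 ± 0.16 on the log2 scale (SE; limma adjusted p = 7.97e-06). Of 27 crypt and epithelial genes 1 had one, Tff3, a goblet cell peptide, with 5.17, 4.23 and 4.66 in WT, compared with 4.48, 4.24 and 3.43 in KO. The groups overlapped and the peak was not called (-0.64 ± 0.29, SE; limma adjusted p = 0.388). Of 17 genes that the study named as more expressed in KO 1 had one, Tlr4, the lipopolysaccharide receptor, which had 4.55, 4.23 and 4.26 in WT and 4.81, 4.24 and 4.35 in KO (0.12 ± 0.27, SE; limma adjusted p = 0.938). That list was chosen by the study, and its count of 1 says little. None of the 5 genes named as gaining H3K9me3 and none of the 11 markers of other cell types had a 3′ flanking peak.

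By chromosome the share called lower was highest on chromosome 11 (32 of 228 peaks, 14.0%) and chromosome 15 (20 of 179, 11.2%), and low on chromosome 12 (11 of 637, 1.73%) and on X (1 of 105) and Y (0 of 104). The median difference was -0.20 on chromosome 11, -0.09 on X and -0.14 on Y, on the log2 scale. Shares over all peaks of the same chromosome are not given here. A trait of a whole chromosome thus cannot be told from one of its 3′ flanking peaks. Within 5 kb of another gene's start site lay 880 of the 3′ flanking peaks, and 83 of these (9.43%) were called lower and 1 higher. Over all 3′ flanking peaks the share lower was 5.39%, and over all peaks it was 2.46%.

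H3K9me2, the related mark, was examined over the same peaks. H3K9me2 regions overlapped 4954 of the 8188 3′ flanking peaks (60.5%), against 68.2% of all H3K9me3 peaks. Among peaks called lower for H3K9me3 the overlap was 60 of 441 (13.6%), and among those not called it was 63.2%. Over all peaks these shares were 14.7% and 69.6%, a similarly low overlap of the lower peaks over the whole set. Of the 2890 H3K9me2 regions over 3′ flanking peaks none was called in KO by edgeR (all regions: 0.00212% lower and 0.00% higher) and none by limma. At an unadjusted p under 0.05 edgeR had 29 lower and 49 higher (2.7% together), and limma had 26 and 59. Over all 47065 regions edgeR had 717 lower and 753 higher (3.12% together), and limma had 621 and 794. The median difference of the 2890 regions was 0.003 on the log2 scale. In the 60 regions over peaks with lower H3K9me3, 4 were lower and none was higher at that unadjusted p by edgeR (6.67%, against 3.12% of all regions). By limma 4 were lower and 1 was higher, and the median difference by edgeR was 0.006. None of these regions was called at an adjusted p under 0.05. No difference of H3K9me2 like that of H3K9me3 was thus detected there, in a set of only 60 regions.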

How the data were processed

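H3K9me3 and H3K9me2 ChIP-seq from WT and Smarcad1-KO small intestinal crypts was analysed. Per the labels and the methods of the study, the authors trimmed reads with Trim Galore 0.4.4, mapped them to GRCm38 with Bowtie2 2.3.2, and called MACS peaks on pooled libraries against both inputs. Peaks were thus not called per library. The deposited H3K9me3 values were log2 counts with matched distributions (inputs were log2 counts without that step). The deposited H3K9me2 signal was a mean count per peak of a region, and multiplied by the number of peaks it gave whole reads. Shorter tables deposited by the authors held the peaks past their own edgeR test as counts or log2 values, and their test columns were not used. No per-sample column was left without a sample.

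H3K9me3 was tested over all peaks with limma 3.58.1 (trend on the mean, genotype as the single term, two-sided, Benjamini-Hochberg), since the table holds no counts. Read counts per library were recovered from the order of the distinct values, which all peaks with the same count share. Counts above 243 to 346 reads per library were extrapolated, and recomputed values lay within 0.007 of the deposited ones. These counts went to edgeR 4.0.16 and DESeq2 1.42.0 as alternatives. H3K9me2 sums were tested with the edgeR quasi-likelihood test with TMM. An overlap of 1 bp counted as shared. R 4.3.3 was used, and each fit was checked on simulated data. The members and lists were chosen with earlier results of these data known. Named in each distance bin were the 4 lower and 2 higher called peaks of smallest p with non-overlapping groups, 1 per gene, with the gene of most peaks, genes with 2 or more called peaks and called peaks of listed genes. Alternatives were DESeq2, edgeR, no mean trend, a mean log2 value of at least 4, a stricter threshold of 0.01, a replicate block, each library left out, other input ratios and bins of 1 kb. Added after seeing the data was the use of peaks on the 3′ side in GENCODE M21 alone. Intervals were not given, since peaks are not replicates, and SDs cover the 3 libraries per genotype.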

Additional observations from a re-analysis of the deposited data

How the results depend on the processing

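The median difference of the 3′ flanking peaks kept its sign and moved by less than the spread between libraries under every alternative run (-0.044 to -0.028 on the log2 scale with a library left out). Counts depended on the processing. Lower calls were 441 in the reported fit, 201 with DESeq2, 7 without the mean trend, 291 at an adjusted p under 0.01, and 275 to 407 with 1 library left out, lowest without WT1. By distance (0-1, 1-2.5 and 2.5-5 kb) the share lower was 2.28%, 2.59% and 2.44% with DESeq2, 0%, 0.155% and 0.0788% without the mean trend, and 3.52% at 1-2.5 kb at an adjusted p under 0.01. With 1 library left out it was 3.22% to 4.61%, 3.68% to 5.19% and 3.21% to 4.99%. Higher calls were 7 in the reported fit, 1 with DESeq2, 0 without the mean trend, 1 at an adjusted p under 0.01 and 2 to 8 with 1 library left out. Their shares were 0%, 0% and 0.0263% both with DESeq2 and at an adjusted p under 0.01, 0% in all bins without the mean trend, 0.0467% at 1-2.5 kb and 0.16% at 2.5-5 kb with a mean log2 value of at least 4, and 0% to 0.111%, 0% to 0.0774% and 0.0263% to 0.184% with 1 library left out. Of the 17 named peaks 1 was called without the mean trend (Klrb1c), and 13 to 16 with 1 library left out. Over the named peaks, 160 of 203 recomputed values kept their call, 43 kept the direction alone and 0 reversed. The median ratio over input was 0.046 (WT) and -0.044 (KO) with at least 10 reads in each input, and 0.024 and -0.021 with recovered reads over library totals, so the order of the genotypes stayed while the values moved by more than 1 SD. Using only peaks on the 3′ side in GENCODE M21 left 437 lower and 7 higher, and the edgeR counts were within 1.5 times the reported ones. What caused the moves between fits was not tested.

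Replicate numbers are shared by WT and KO, but the reported fits did not pair libraries by them. Same-numbered H3K9me3 libraries deviated with correlations of -0.015, 0.009 and -0.014, so no pairing was seen there. For H3K9me2 the correlations were 0.22, 0.001 and 0.113, which do not settle whether those libraries were paired. With the replicate block 445 3′ flanking peaks were lower and 7 higher, by distance 5.11%, 5.73% and 5.39% lower, and 1 H3K9me2 region over them was called, against 0 without the block. Depth limits single peaks, with a median of 21 to 37 reads per library.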
